A study of Mus musculus with 11 samples.

Results

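The FAM3 family of secreted, cytokine-like proteins was followed in mouse testis at postnatal day 21 (P21). Its 4 genes, Oit1 (the mouse gene for FAM3D), Fam3a, Fam3b and Fam3c, were taken by gene symbol from a table of 23074 genes, and all 4 had enough reads to be tested. Oit1 was chosen by its counts in these same mice, which were higher in Rfx2-/- than in wild type testis, so its difference between genotypes is given as a description without a test. The other 3 genes follow from the family and were tested. RNA-Seq was performed on total RNA from decapsulated whole testes of 5 wild type mice (replicates 1 to 5) and 6 Rfx2-/- mice (replicates 6 to 11), each an independent mouse. All 11 shared a mixed C57BL/6, 129/Sv and FVB/N background and an age of 21 days. In the Rfx2-/- mice exon 7 of Rfx2, which encodes much of the DNA binding domain of this transcription factor, had been removed in the germ line by crossing to mice that carry Cre under the ubiquitous ACTB promoter, and the methods of the study state that the mixed background line retained its neo selection cassette. The deletion is therefore present in every cell type of the testis and of the rest of the body.

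FAM3 proteins have been described as a family of secreted proteins with a signal peptide. Their conserved cysteines form disulfide bonds within a compact fold that also occurs in the glycosyltransferase POMGNT1 and in the hyaluronidase CEMIP. FAM3A has been studied mainly for its action on ATP release and insulin signalling in liver. FAM3B, also called PANDER, is best known as a product of pancreatic islet beta cells. FAM3C, also called ILEI, is widely expressed and is known for promoting the transition from epithelial to mesenchymal cells. FAM3D is made mostly by the gut epithelium, and formyl peptide receptors have been described as its receptors. In the mouse testis, P21 is an age at which spermatocytes are abundant and the first round spermatids appear, and RFX2 acts in both.

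The genes lie on 4 chromosomes of GRCm38, all on the minus strand. Oit1 (ENSMUSG00000021749) spans 8348937 to 8378754 of chromosome 14 and Fam3c (ENSMUSG00000029672) spans 22306520 to 22356243 of chromosome 6. Fam3a (ENSMUSG00000031399) occupies 74384719 to 74393272 of the X chromosome, and Fam3b (ENSMUSG00000022938) occupies 97470965 to 97514816 of chromosome 16. The longest coding sequences were of similar size, at 669 nt for Oit1, 711 nt for Fam3a, 738 nt for Fam3b and 741 nt for Fam3c. Merged exons ranged from 1328 nt for Fam3b to 3372 nt for Fam3c, with 1569 nt for Oit1 and 2042 nt for Fam3a.

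The promoters of these genes bear on a comparison of Rfx2 genotypes because RFX factors bind the X-box, an inverted repeat. RefSeq promoters of 300 bases (250 before and 50 after the start, GRCm38.p6) were at hand for 3 of the 4 genes, and Fam3b was not among them. They were searched on both strands for the half-site GTTNCC and for the whole repeat, the half-site followed after 2 free bases by its reverse complement, in which 10 letters are set. The half-site occurred once in the Fam3c promoter, 116 bases before the start, and in no promoter of Oit1 or Fam3a. It was present in 45.3% of all 32851 promoters of this length. The sequences below show the stretch before the Oit1 start, with the window closest to the whole repeat in capitals (6 of the 10 letters), and the half-site of Fam3c in capitals with its flanks.
Oit1 (chr14:8378764-8379013, minus strand): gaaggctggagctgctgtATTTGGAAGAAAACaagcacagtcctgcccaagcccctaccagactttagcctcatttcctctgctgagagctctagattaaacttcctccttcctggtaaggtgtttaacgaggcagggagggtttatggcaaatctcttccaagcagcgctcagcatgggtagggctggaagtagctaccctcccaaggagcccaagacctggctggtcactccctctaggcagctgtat
Fam3c (chr6:22356180-22356209, minus strand): cgcggctccgcgGTTGCCgggctcattggc

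A match to 6 letters is not specific, since 99.4% of all promoters held a window with at least 6, and the best window of Fam3a also reached 6. The best window of Fam3c reached 7 letters, as did 63.4% of all promoters, and it starts with the half-site shown. In the GENCODE annotation this Fam3c stretch is part of the untranslated first exon of 1 longer transcript, while the Oit1 stretch lies outside annotated exons. The promoters also differed in base composition, with a GC content of 55.0% for Oit1 and 75.0% for Fam3c against a median of 52.7%. These matches describe letters within a window and not binding.

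Reads counted on genes totalled 26925157 to 29769483 per wild type and 22232097 to 27116903 per Rfx2-/- mouse. Gene levels below are in CPM, that is, counts divided by the library size after TMM scaling and set to a common library size. Counts over all exons of Rfx2 do not report on exon 7, and the level of Rfx2 was 326 ± 118 CPM (SD over 5 mice) with and 304 ± 14.6 CPM (SD over 6 mice) without exon 7 (log2 difference -0.10, edgeR adjusted p = 0.714). Of 15745 genes tested with edgeR's quasi-likelihood test, 420 or 2.67% passed an adjusted p (Benjamini-Hochberg) of 0.01, of which 115 (0.73%) were higher and 305 (1.94%) lower in Rfx2-/- testis. Wild type replicate 1 stood apart by 595 CPM summed over 8 epididymis markers, against 10 to 129 in the other wild type and 4.48 to 130 in the Rfx2-/- mice. The mice also differed in a round spermatid score, the mean log2 CPM of 10 markers, taken here as a measure of maturity. It ran from -0.475 to 5.69 among wild type and from 2.04 to 6.32 among Rfx2-/- mice. Of the 10 markers 9 had a positive log2 fold change (median 0.98). Maturity and an effect of genotype on these markers cannot be told apart, also where the score is a covariate. Spermatocyte markers, Sertoli cell markers such as Sox9 and Wt1, and the other testis cell types were detected in all mice.

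For wild type replicates 1 to 5, Oit1 stood at 46.3, 30.6, 16.4, 30.4 and 12.8 CPM. For Rfx2-/- replicates 6 to 11 it stood at 164, 180, 144, 128, 162 and 138 CPM. The genotypes were far apart, the lowest Rfx2-/- mouse lying well above the highest wild type mouse. Wild type mice averaged 27.3 ± 13.3 CPM (SD over 5 mice) and Rfx2-/- mice 153 ± 19.4 CPM (SD over 6 mice), a fitted difference of 5.59-fold (log2 difference 2.48 ± 0.30, SE). Every Rfx2-/- mouse was above every wild type mouse for 6.5% of all tested genes, and 0.216% of tested genes were called and more than 2-fold higher. These shares are the background of the contrast by which Oit1 was picked. The raw counts behind the values were 408 to 1315 in wild type and 2874 to 4366 in Rfx2-/- mice, so counting error was small next to the spread between mice. An antisense gene on the plus strand, 2610318M16Rik, lies within Oit1 from 8367440 to 8371010 and has no row of its own in the table. Whether reads were counted by strand is not given in the sources used here.

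The spread of Oit1 within wild type mice was wide, with a highest value well above the lowest. Its order among them, replicates 1, 2, 4, 3 and 5 from high to low, was the order of their round spermatid scores, which were 5.69, 4.0, 1.5, 0.965 and -0.475. Replicates 2 and 4 differed little in Oit1 (30.6 and 30.4 CPM) although their scores were apart. Values of mice of different genotype but like score can be set side by side, as a description of the gene picked for this difference. Wild type replicate 1 (score 5.69) had 46.3 CPM and Rfx2-/- replicate 6 (score 5.35) had 164 CPM, and Rfx2-/- replicate 8, with the lowest score of its group at 2.04, had 144 CPM, against 30.4 CPM in wild type replicate 4 (score 1.5). With the score as a covariate the fitted log2 difference was 2.25. Because the genotypes do not overlap in Oit1, any such pair of mice shows a gap. The part of maturity in the difference was not tested.

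**Figure D1:**
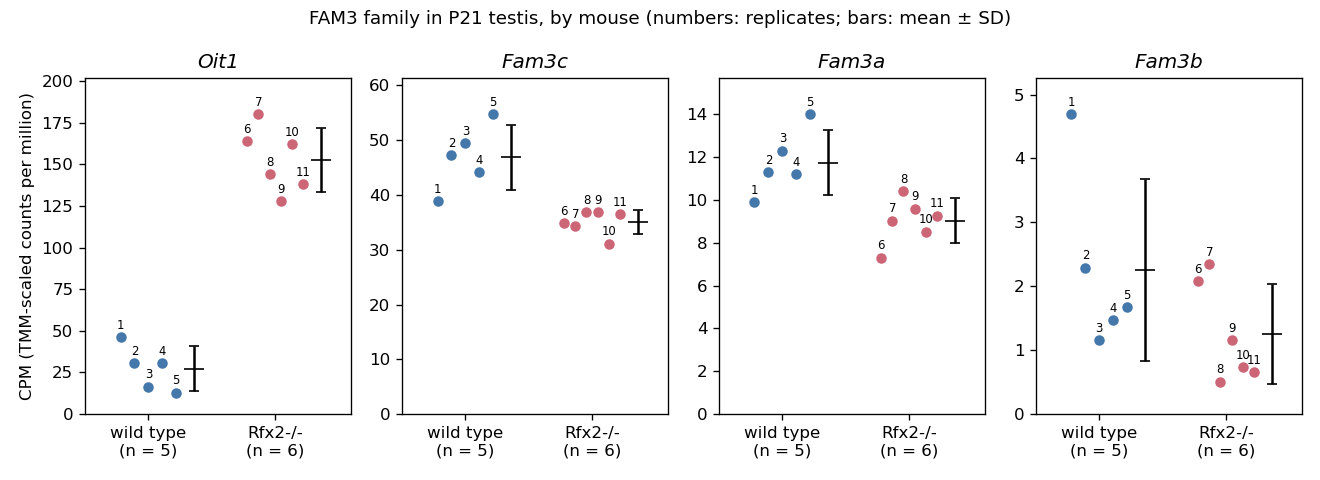
CPM of the 4 FAM3 genes (vertical axes, separate linear scales from 0) in each wild type (blue, n = 5) and Rfx2-/- (red, n = 6) mouse, with replicate numbers and with the mean and SD as black bars. For Oit1 and Fam3c the genotypes do not overlap, while for Fam3a and Fam3b they do, and Fam3b is highest in wild type replicate 1.

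Fam3c, Fam3a and Fam3b all had lower means in Rfx2-/- than in wild type testis, and 0 of the 3 passed the adjusted p of 0.01 in edgeR, against 2.67% of all tested genes. At an adjusted p of at most 0.05, 2 of the 3 passed (Fam3c and Fam3a), where 14.9% of all tested genes did and 8.78% passed as lower. At an unadjusted p under 0.05 the same 2 genes passed, as did 41.8% of all tested genes. The direction was lower for each of the 3 under every scaling and test tried. Total counts in place of TMM moved the median of all genes from a log2 difference of -0.05 to -0.22, and the values of Fam3c and Fam3a moved with it to -0.59 and -0.56.

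For Fam3c the 5 wild type values, in order of replicate, were 38.9, 47.3, 49.4, 44.1 and 54.7 CPM. Among Rfx2-/- mice the lowest value was 31.1, the median 35.7 and the highest 36.9 CPM. All Rfx2-/- mice lay below all wild type mice, the nearest being wild type replicate 1, and every Rfx2-/- mouse was below every wild type mouse for 5.2% of all tested genes. On average Fam3c reached 46.9 ± 5.9 CPM (SD over 5 mice) in wild type against 35.1 ± 2.21 CPM (SD over 6 mice) in Rfx2-/- testis, a log2 difference of -0.42 ± 0.09 (SE). The adjusted p of 0.0155 from edgeR missed the threshold. An exact two-sided permutation test of the mean log2 CPM gave p = 0.00433, the smallest it can give with 5 against 6 mice. Leaving out wild type replicate 1 raised the genes called lower from 305 of 15745 tested to 393 of 15775. Fam3c passed 0.01 in that edgeR fit (log2 difference -0.48, adjusted p = 0.0041). It also passed under the DESeq2 Wald test (-0.39, adjusted p = 0.00061), where 5.79% of all tested genes were called lower, under limma voom (-0.41, adjusted p = 0.00332), where 4.33% were, and with the round spermatid score as a covariate (-0.32, adjusted p = 0.00963), where 4.25% were.

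For Fam3a they were 9.9, 11.3, 12.3, 11.2 and 14 CPM. In Rfx2-/- testis the lowest value was 7.30, the median 9.16 and the highest 10.4 CPM. The groups overlapped only through wild type replicate 1, which lay below Rfx2-/- replicate 8. Mean levels of 11.7 ± 1.52 CPM (SD over 5 mice) and 9.02 ± 1.05 CPM (SD over 6 mice) gave a log2 difference of -0.38 ± 0.11 (SE). The edgeR adjusted p was 0.0479 and the exact two-sided permutation p was 0.00866. The adjusted p ranged from 0.0176 to 0.115 over the 17 other fits.

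Fam3b was the lowest of the family, with 41 to 133 reads in wild type and 11 to 57 in Rfx2-/- mice. Its CPM in wild type replicates 1 to 5 were 4.69, 2.29, 1.16, 1.47 and 1.67, and those of Rfx2-/- replicates 6 to 11 were 2.08, 2.35, 0.509, 1.16, 0.739 and 0.653. All were above the level of 3 counts, which is 0.0852 to 0.139 CPM. The groups overlapped widely, and wild type replicate 1 was highest by far. Averages of 2.26 ± 1.42 CPM (SD over 5 mice) and 1.25 ± 0.784 CPM (SD over 6 mice) gave a log2 difference of -0.85 ± 0.48 (SE), with an edgeR adjusted p of 0.192. The exact two-sided permutation p was 0.117. Replicate 1 of the wild type carried much of this difference. This mouse had the high epididymis markers and also the highest round spermatid score of the wild type mice (5.69). Without it the log2 fold change was -0.39 (adjusted p = 0.461). With the round spermatid score as a covariate it was -1.33 (adjusted p = 0.0178). A processed pseudogene, Gm9242, with a row of its own, and the rRNA gene Gm24777 lie within the span of Fam3b.

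Markers of several testis cell types, though not of all, also had negative log2 fold changes. Of the Sertoli cell markers 12 of 12 had a negative log2 fold change (median -0.35, summed 2470 to 3760 CPM in wild type and 2400 to 2860 CPM in Rfx2-/- mice), close to the values of Fam3c and Fam3a. Macrophage (9 of 9, median -0.42) and endothelial cell markers (6 of 6, median -0.42) were also below 0, as were 6 of 8 spermatogonium markers (median -0.42). On the other side, 8 of 10 spermatocyte markers (median 0.27, summed 4770 to 7780 and 7320 to 8210 CPM) and 9 of 10 round spermatid markers (median 0.98, summed 58.9 to 661 and 233 to 1010 CPM) were above 0. In these 6 lists edgeR called 0 genes at an adjusted p of 0.01, DESeq2 called 1 Sertoli cell marker and voom called 0. At an unadjusted p under 0.05 edgeR passed 10 Sertoli cell, 5 macrophage, 4 endothelial cell, 3 spermatogonium, 4 spermatocyte and 1 round spermatid marker, where 41.8% of all tested genes passed. Leydig cell markers had a negative log2 fold change in 6 of 7 cases (median -0.57). They summed to 134 to 322 CPM in wild type and 78.3 to 285 CPM in Rfx2-/- mice. Of these 7 markers edgeR called 1 as lower, DESeq2 called 3 and voom 2. Over all tested genes edgeR called 2.67% (1.94% as lower), DESeq2 13.1% and voom 6.66%. Peritubular myoid cell markers, also somatic, stayed near 0 (4 of 5 below 0, median -0.07), and 0 of them passed an unadjusted p under 0.05 in edgeR. Over all tested genes 54.8% were below 0, with a median of -0.05. In whole testis fewer cells of a type and less RNA per cell cannot be told apart, and the part of cell composition in the FAM3 values was not tested.

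The tissue in which FAM3D is best known was checked by its markers. Of 15 markers of gut and other simple epithelia, 10 were abundant enough to be tested, with 9 below 0 (median -0.56). The list summed to 56.5 to 135 CPM in wild type and 55.4 to 66.4 CPM in Rfx2-/- mice. The 135 CPM was that of wild type replicate 1, the mouse with the high epididymis markers. The other wild type mice had 56.5 to 66.8 CPM. The intestinal markers Cdx2, Muc2, Reg3g and Fabp2 had at most 12 counts in any mouse, while Epcam, a general epithelial marker, made up much of the sum with 41.8 ± 5.67 CPM (SD over 5 mice) in wild type against 37.8 ± 0.943 CPM (SD over 6 mice) in Rfx2-/- testis. The marker above 0, Vil1, which encodes the brush border protein villin, averaged 0.572 ± 0.135 and 2.20 ± 1.88 CPM, with overlap (log2 difference 1.94 ± 0.59, SE, edgeR adjusted p = 0.0492). DESeq2 called 1 gene of the list at 0.01, and edgeR and voom called 0 (3 at an unadjusted p under 0.05 in edgeR). Over all tested genes DESeq2 called 13.1%, edgeR 2.67% and voom 6.66%, and 41.8% passed the unadjusted p. The part of epithelial cells in the level of Oit1 was not tested. Of 8 neutrophil markers 1 was abundant enough to be tested, and Ly6g had no count in any mouse. The neutrophil list summed to 1.48 to 17.5 CPM in wild type and 3.70 to 5.36 CPM in Rfx2-/- testis. The 17.5 CPM was again that of wild type replicate 1, with at most 4.94 CPM in the other wild type mice.

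Levels of different genes were compared as CPM per kb of merged exons. Oit1 averaged 17.4 ± 8.5 CPM per kb (SD over 5 mice) in wild type against 97.3 ± 12.4 CPM per kb (SD over 6 mice) in Rfx2-/- testis. Fam3c had 13.9 ± 1.75 and 10.4 ± 0.656, Fam3a 5.75 ± 0.742 and 4.42 ± 0.515, and Fam3b 1.70 ± 1.07 and 0.939 ± 0.59 CPM per kb, in the same order of genotypes. In wild type mice Oit1 (8.17 to 29.5) and Fam3c (11.5 to 16.2) could not be ordered beyond their spread, since Oit1 was the higher in replicates 1, 2 and 4 and Fam3c in replicates 3 and 5. Fam3c was above Fam3a and Fam3a above Fam3b in all 11 mice, without overlap between neighbouring genes within a genotype. With the longest coding sequence as the length, Oit1 was above Fam3c in 1 of the 5 wild type mice.

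**Figure D2:**
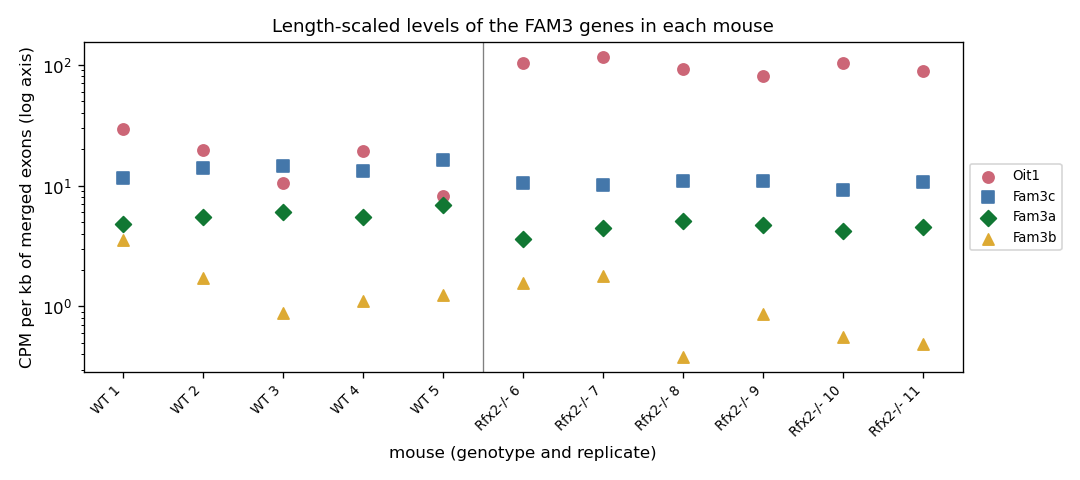
CPM per kb of merged exons (logarithmic vertical axis) of the 4 FAM3 genes in each wild type (WT) and Rfx2-/- mouse (horizontal axis, genotype and replicate). Oit1 and Fam3c trade places among the wild type mice, and Oit1 lies well above the other 3 genes in all 6 Rfx2-/- mice.

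As a share of the summed CPM per kb of the family, Oit1 made up 25.2% to 59.7% in wild type mice (median 47.8%) and 83.1% to 88.1% in Rfx2-/- mice (median 85.9%). Among 15610 genes ranked by CPM per kb within a mouse, Oit1 had a median percentile of 72.5 in wild type and 95.6 in Rfx2-/- testis. The other genes ranked a little lower in Rfx2-/- testis, at a median percentile of 58.7 for Fam3c (64.9 in wild type), 41.4 for Fam3a (45.4) and 17.0 for Fam3b (24.0). The ratio of Fam3c to Fam3a differed little between mice, with 2.37 to 2.53 in wild type (median 2.38) and 2.14 to 2.90 in Rfx2-/- testis (median 2.31), and the genotypes overlapped.

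Within the 6 Rfx2-/- mice, which share a genotype, log2 CPM of each gene was set against the round spermatid score, giving 4 relations. Oit1 was higher in mice of higher score (Pearson's r = 0.892, exact permutation p = 0.0194, adjusted over the 4 relations 0.0778, and Spearman's rho = 0.829, exact permutation p = 0.0583, adjusted 0.0778). Leaving out replicates 7 and 8, whose scores were farthest from the median, r over the remaining 4 mice was 0.952. Fam3a and Fam3c ran the other way, with r = -0.689 (exact permutation p = 0.114, adjusted 0.152; rho = -0.829, p = 0.0583, adjusted 0.0778) and r = -0.572 (exact permutation p = 0.222, adjusted 0.222; rho = -0.771, p = 0.103, adjusted 0.103). Without the same mice their r was -0.897 and -0.563. For Fam3b r was 0.732 (exact permutation p = 0.0972, adjusted 0.152; rho = 0.829, p = 0.0583, adjusted 0.0778) and 0.316 without these mice, so that its relation rests on them. None of the 4 relations passed an adjusted p of 0.05, and no correlation was computed over the 5 wild type mice, since at least 6 mice were required.

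**Figure D3:**
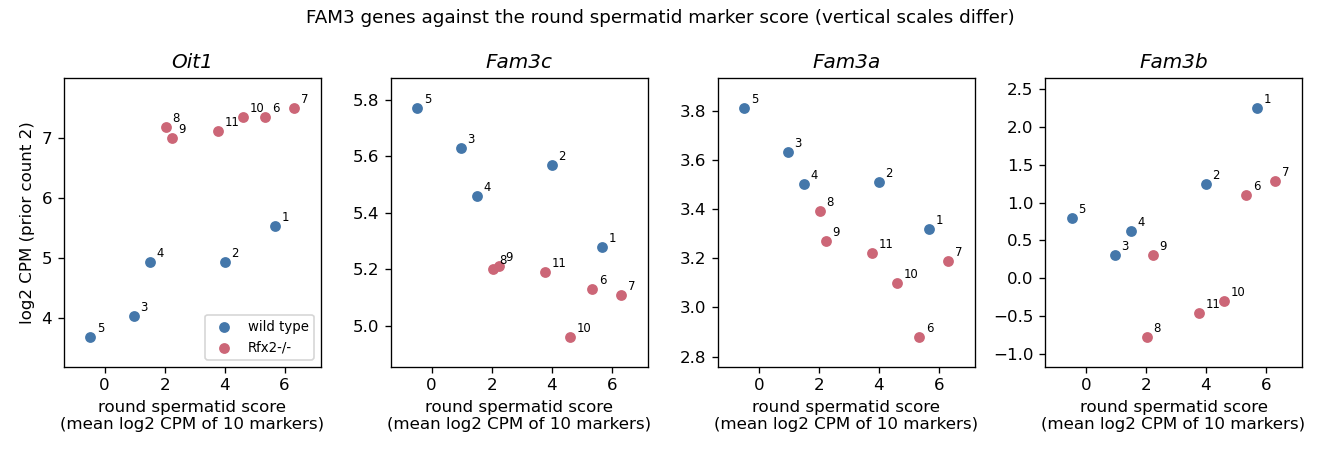
Log2 CPM (prior count 2) of each FAM3 gene (vertical axes, separate scales) against the round spermatid score, the mean log2 CPM of 10 markers (horizontal axis), in wild type (blue) and Rfx2-/- (red) mice with replicate numbers. Oit1 runs upward within each genotype and all Rfx2-/- mice lie above all wild type mice, while Fam3a and Fam3c are lower in mice of higher score.

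The genes whose log2 CPM followed each member most closely over the 11 mice were named by Pearson's r, as a description, since all genes share libraries, genotype and maturity. For Oit1 these were Ribc2 (r = 0.998, 30 CPM in wild type and 111 CPM in Rfx2-/- testis), which encodes a protein of ciliary and flagellar microtubules, Ccdc189 (r = 0.997, 53.5 and 221 CPM) and Wdr66 (r = 0.996, 123 and 448 CPM), a flagellar protein gene. After removal of the genotype means they were Wdr60 (r = 0.997), which encodes a subunit of the dynein that moves cargo within cilia, Plcd4 (r = 0.997), a phospholipase C gene, and Hhatl (r = 0.996). These 3 genes differed much less between genotypes, with log2 fold changes of 0.29 for Wdr60, 0.25 for Plcd4 and 0.96 for Hhatl, against 2.48 for Oit1.

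For Fam3c the closest genes were Txn1 (r = 0.992), the gene for the redox protein thioredoxin, Sh3bgrl (r = 0.983) and Tmem14c (r = 0.981), whose log2 fold changes of -0.47, -0.51 and -0.43 were near that of Fam3c. Without the genotype means they were Tuba1b (r = 0.984), an alpha tubulin gene, Txn1 again (r = 0.980) and Prdx3 (r = 0.978), a mitochondrial peroxiredoxin gene. Fam3a was followed by Xlr5c (r = 0.971), Prkx (r = 0.967), a protein kinase gene of the X chromosome, and Dennd2a (r = 0.966), and without genotype means by Depp1 (r = 0.949), Trip13 (r = 0.944), which acts in meiotic recombination, and Slc25a18 (r = 0.942). For Fam3b the values were lower, with A2m (r = 0.930), a protease inhibitor gene, Fgd2 (r = 0.928) and Slc25a46 (r = 0.926), and without genotype means Nrgn (r = 0.943), Zfp629 (r = 0.935) and S100a13 (r = 0.934).

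Among themselves, Oit1 ran against Fam3c (r = -0.955 over 11 mice and -0.877 with genotype means removed) and against Fam3a (-0.878 and -0.745). Fam3a and Fam3c ran together (0.904 and 0.755). Fam3b changed sides with the removal of genotype means, from -0.306 to 0.571 with Oit1 and from 0.0185 to -0.645 with Fam3a.

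Receptors, partners and downstream genes described for FAM3 proteins were taken from 8 lists written from knowledge of the family. The files held 81 such genes, of which 67 were abundant enough to be tested, and 1 of these passed an adjusted p of 0.01, as lower, against 1.94% of all tested genes. The count of 48 genes below 0 with a median of -0.25 compares with 54.8% below 0 and a median of -0.05 over all tested genes. At an adjusted p of at most 0.05, 2 were higher and 7 lower, where 6.15% and 8.78% of all tested genes were.

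The formyl peptide receptors, described as receptors of FAM3D, were almost without reads. None of the 7 genes reached the filter, 5 had no count in any mouse, and no mouse had more than 3 counts of any of them. Fpr1 had 2 counts over all wild type and 3 over all Rfx2-/- mice, and Fpr2 had 7 and 5. A difference in these receptors was not detectable at this depth. Genes of proteins that share the FAM3 fold gave 0 calls among 3 in edgeR, DESeq2 and voom (1 at an unadjusted p under 0.05 in edgeR), and their log2 fold changes of 0.41 for Pomgnt1, 0.53 for Cemip and -0.39 for Cemip2 had adjusted p of 0.134, 0.392 and 0.0905.

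LIF receptor signalling, through which FAM3C has been described to act, gave 0 calls among 9 genes in edgeR, DESeq2 and voom (2 at an unadjusted p under 0.05 in edgeR), with 8 below 0 (median -0.30). Lifr, the receptor itself, was at 52.6 ± 9.55 CPM (SD over 5 mice) in wild type against 42.8 ± 3.05 CPM (SD over 6 mice) in Rfx2-/- testis, with overlap between genotypes (log2 difference -0.30 ± 0.11, SE, edgeR adjusted p = 0.0789). The plasmin system, which processes secreted FAM3C, held the one call. Plau (ENSMUSG00000021822), which encodes the urokinase that activates plasminogen, fell from 6.65 ± 1.35 CPM (SD over 5 mice) to 3.88 ± 0.323 CPM (SD over 6 mice), without overlap (log2 difference -0.77 ± 0.14, SE, edgeR adjusted p = 0.0078). Every Rfx2-/- mouse was below every wild type mouse for 5.2% of all tested genes. The call of Plau was lost in 9 of the 11 fits that left out a mouse, where the adjusted p reached 0.0238.

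The other lists were described by their counts. ATP receptors (12 tested, 10 below 0, median -0.37), FGF receptors (5 tested, all 5 below 0, median -0.40), insulin and FOXO signalling (22 tested, 14 below 0, median -0.21) and the signal peptidase and disulfide forming enzymes of the secretory pathway (11 tested, 5 below 0, median 0.07) gave 0 calls at 0.01 in edgeR. DESeq2 called 1, 2, 2 and 1 of them, voom called 1 of the last list, and at an unadjusted p under 0.05 edgeR passed 5, 4, 7 and 3. Over all tested genes DESeq2 called 13.1%, voom 6.66%, and 41.8% passed the unadjusted p. Chosen after their values were seen, Fgfr3 had 13 ± 2.20 and 8.06 ± 1.38 CPM (log2 difference -0.69, edgeR adjusted p = 0.0172) and Fgfr2 had 10.2 ± 2.66 and 6.39 ± 0.768 CPM (-0.67, adjusted p = 0.0344), in wild type and Rfx2-/- testis.

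Genes that start within 500000 bases of a member were 53 in the table, of which 44 were tested, and 1 passed an adjusted p of 0.01, as higher, against 0.73% of all tested genes. It was Pxk, a gene of a phox domain protein 280543 bases from the start of Oit1, which rose from 21.0 ± 1.92 CPM (SD over 5 mice) to 28.5 ± 1.35 CPM (SD over 6 mice) without overlap (log2 difference 0.44 ± 0.07, SE, edgeR adjusted p = 0.00481). Every Rfx2-/- mouse was above every wild type mouse for 6.5% of all tested genes. With total counts as library sizes the adjusted p of Pxk was 0.036 (log2 fold change 0.28), and 9 of the 11 fits that left out a mouse also lost the call. The 8 tested neighbours of Oit1 had a median log2 fold change of -0.13. Their summed level was 249 to 304 CPM in wild type and 283 to 311 CPM in Rfx2-/- testis. At an adjusted p of 0.01 DESeq2 called 2 of the 8 and voom 3, against 13.1% and 6.66% of all tested genes. At an unadjusted p under 0.05 edgeR passed 6 of the 8, where 41.8% of all tested genes passed. The highest log2 difference among these neighbours, chosen after its values were seen, was 1.44 for the nuclease gene Dnase1l3 (edgeR adjusted p = 0.0917). This gene had at most 58 counts in a wild type and 126 in an Rfx2-/- mouse.

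On the X chromosome, 23 of the 25 tested neighbours of Fam3a had a negative log2 fold change, with a median of -0.38 equal to the value of Fam3a itself, and 5 of them passed an adjusted p of 0.05 as lower. The same held for the rest of the chromosome. Of 588 tested X-linked genes farther away, 511 (86.9%) were below 0, again with a median of -0.38, and 18% passed 0.05 as lower, against 54.8% below 0, a median of -0.05 and 8.78% over all tested genes. The value of Fam3a was thus at the median of its chromosome. Many X-linked genes are silent in meiotic spermatocytes, whose markers had a median log2 difference of 0.27, and the part of this in the value of Fam3a was not tested. Ikbkg, chosen after its values were seen, starts 18 bases from Fam3a on the other strand and stood at 26.2 ± 4.13 CPM (SD over 5 mice) against 19.9 ± 1.92 CPM (SD over 6 mice), a log2 difference of -0.40 (edgeR adjusted p = 0.0392). Fam3b and Fam3c had 9 and 2 tested neighbours with medians of -0.14 and -0.09. edgeR passed 0 of them at an adjusted p of 0.05 and 2 near Fam3c at an unadjusted p under 0.05, and DESeq2 and voom called 0.

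**Figure D4:**
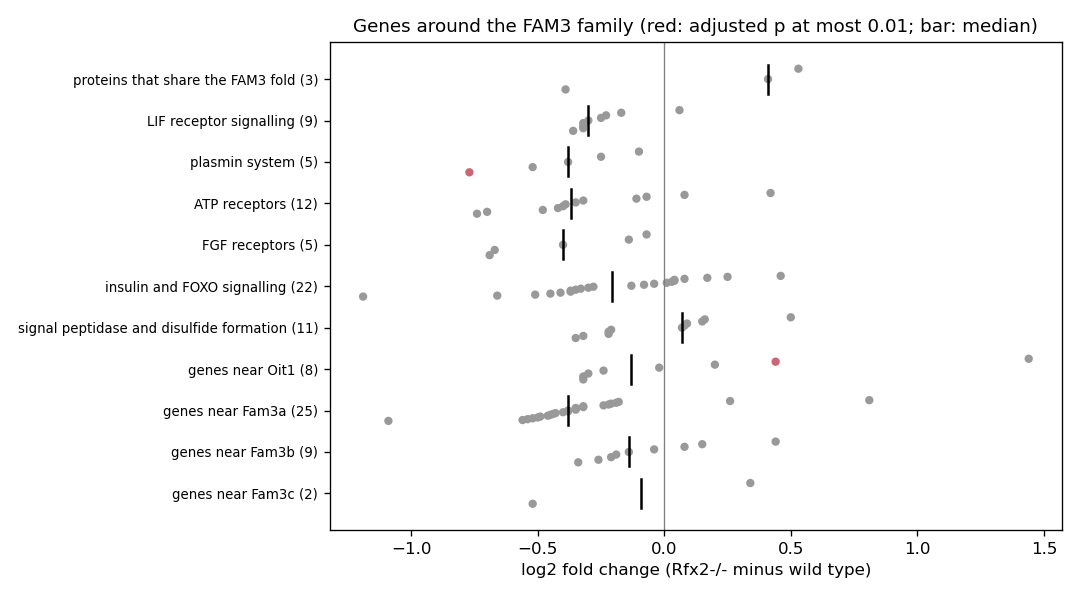
Log2 fold change (Rfx2-/- minus wild type, horizontal axis) of each tested gene of the FAM3 pathway lists and of the genes near each member (rows, number tested in parentheses), with red points for an adjusted p of at most 0.01 and black bars for the median. Most lists lie to the left of 0, and the red points are Plau in the plasmin system and Pxk near Oit1.

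**Figure D5:**
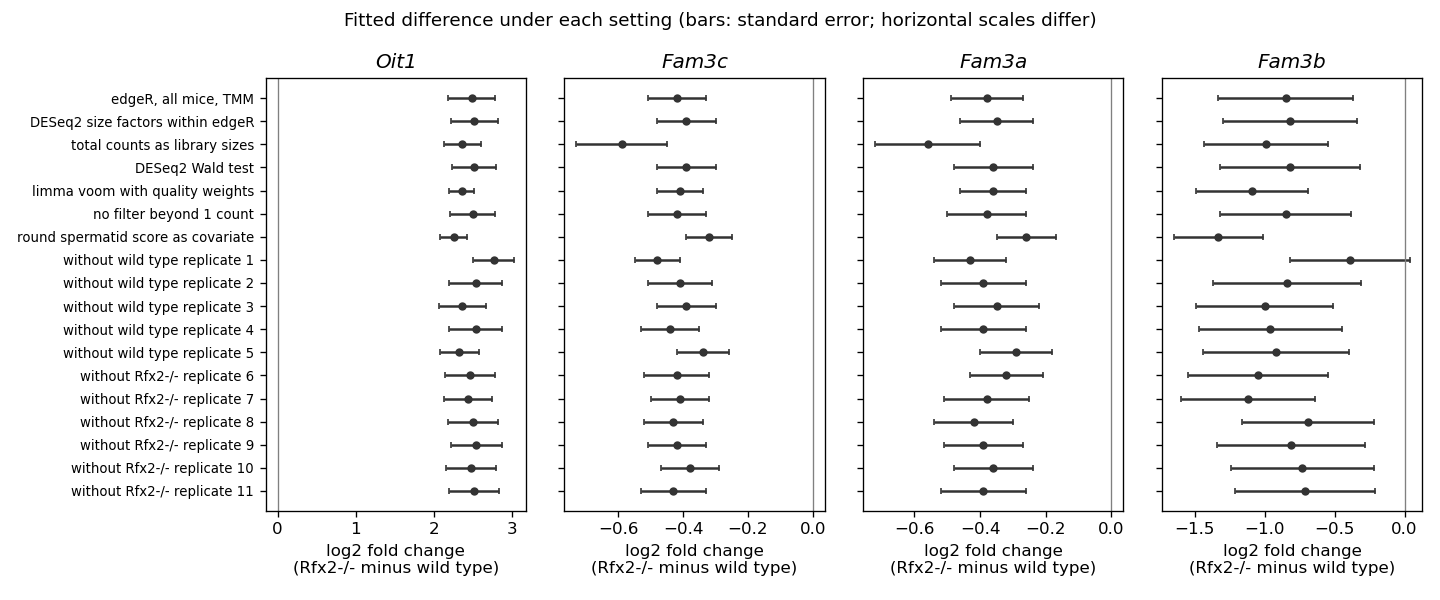
Fitted log2 fold change (Rfx2-/- minus wild type, horizontal axes with separate scales) of each FAM3 gene with its standard error, under edgeR with all mice and under each other test, scaling, filter, covariate or omitted mouse (rows). Every fitted value keeps its side of 0, which for Oit1 follows from its being picked for its rise in these mice. Oit1 lies between 2.25 and 2.76. Fam3b moves most, to -0.39 without wild type replicate 1 and to -1.33 with the covariate.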

How the data were processed

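Per the labels and the methods of the study, single reads from TruSeq libraries of decapsulated testes were mapped to GRCm38 (Ensembl release 70), reads mapping to several places were discarded, and the authors counted reads on the merged exons of protein coding isoforms, leaving out reads on exons of different genes. Different paragraphs of the methods give reads of 46 or 50 nt and different aligners. The submitters' processing notes name CASAVA 1.8.2, STAR 2.4 and featureCounts 1.4.6, without a strand setting. The deposited values are raw counts, without normalization. Mice at other ages were not analysed here.

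The count model was edgeR 4.0.16 under R 4.3.3 (filterByExpr by genotype, TMM, glmQLFit and glmQLFTest, no covariates). A gene was called where p, adjusted by Benjamini-Hochberg over 15745 tested genes, did not exceed 0.01. The methods of the study name DESeq at p of at most 0.01 without stating an adjustment. CPM are counts divided by the scaled library size. Log2 CPM carried a prior count of 2. The scripts were tested on simulated data. Alternatives were DESeq2 1.42.0 size factors within edgeR, total counts, the DESeq2 Wald test, limma 3.58.1 voom with quality weights, no filter beyond 1 count, an adjusted p of 0.05, the round spermatid score as a covariate, and each mouse left out. For single genes the difference in mean log2 CPM was compared by exact two-sided permutation over the 462 splits of mice into 5 and 6. A floor of 3 counts covers counting error only.

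The family and all gene lists were chosen with earlier results of these data known. Genes named are the 4 members, Rfx2, listed or neighbouring genes called at 0.01, Fpr1, Fpr2 and Lifr, and the 3 genes most correlated with each member, before and after removing genotype means. Genes outside this rule are named as markers or list members, or as chosen after their values were seen. Positions and exon lengths came from GENCODE M21 (GRCm38), which gave symbols for 22293 of 23074 genes. Among pairs of mice of 1 genotype every pair differed by more than sampling noise. The round spermatid markers were Acrv1, Spaca1, Spaca4, Catsper3, Catsper4, Tssk1, Tssk2, Sun5, Acrbp and Izumo1. Further marker lists were fixed for peritubular myoid cells (median log2 fold change -0.07), red blood cells (0.14), elongating spermatids (-0.27) and the epididymis (5 of 5 tested below 0, median -2.15). Python 3.11.15, matplotlib 3.10.9, SciPy 1.17.1 and pandas 2.3.3 served for tables and plots.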

Additional observations from a re-analysis of the deposited data

Results flagged for a closer look

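Wild type replicate 1 had 595 CPM summed over the epididymis markers, and its gap to the next wild type mouse was 0.797 of the range of the 5 mice. It was the only value picked out among 14 groups of mice examined in this way, and chance alone picks out about 5% of such groups. The same mouse had the highest Fam3b (4.69 CPM) and the highest Oit1 (46.3 CPM) and the lowest Fam3c (38.9 CPM) and Fam3a (9.9 CPM) of the wild type mice. Without it the log2 fold changes were 2.76 for Oit1, -0.48 for Fam3c, -0.43 for Fam3a and -0.39 for Fam3b. It also had the highest round spermatid score of the wild type mice (5.69). Among Rfx2-/- mice, replicates 8 and 9 had epididymis sums of 54.5 and 130 CPM and Fam3b at 0.509 and 1.16 CPM. Replicates 6 and 7 had sums of 6.7 and 5.37 CPM and Fam3b at 2.08 and 2.35 CPM. Replicates 10 and 11 had sums of 4.48 and 15.3 CPM and Fam3b at 0.739 and 0.653 CPM. The parts of epididymal RNA and of maturity in these values were not tested.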

How the results depend on the processing

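Fam3a, Fam3b and Fam3c kept their direction under every setting. That of Oit1 was fixed beforehand, since it was picked for its rise in these same mice, without overlap of the genotypes. Over the 17 alternatives the log2 fold change was 2.25 to 2.76 for Oit1, -0.59 to -0.32 for Fam3c, -0.56 to -0.26 for Fam3a and -1.33 to -0.39 for Fam3b, and Fam3c passed an adjusted p of 0.01 in 4 of them. Of Fam3a, Fam3b and Fam3c, 0 passed in the reported fit and 1 each (Fam3c) under the DESeq2 Wald test, limma voom and the round spermatid covariate, where 5.79%, 4.33% and 4.25% of all tested genes were called lower. Leaving out a mouse gave 0 to 1, with 1 only without wild type replicate 1, and an adjusted p of 0.05 gave 2. In the fit without that mouse 393 of 15775 tested genes were called lower, and 8.78% passed 0.05 as lower in the reported fit. The number of genes called among all tested, 420, became 2057 under DESeq2 (1146 higher and 911 lower, or 44.3% lower against 72.6% in the reported fit), 1049 under voom, 909 with the covariate, 2350 at an adjusted p of 0.05 and 229 to 585 with a mouse left out. Total counts gave 81.7% lower. The pathway lists, with 1 gene called, gave 7 under DESeq2, 2 under voom, 2 with the covariate, 0 without the filter, 9 at 0.05 and 0 to 2 with a mouse left out. The neighbours, with 1 called, gave 4, 3 and 7 under DESeq2, voom and 0.05, and 0 to 1 with a mouse left out. In the reported fit 67 pathway genes and 44 neighbours were tested. Over all tested genes DESeq2 called 13.1%, voom 6.66% and edgeR at 0.05 14.9%. Oit1 was above Fam3c per length in 3 of 5 wild type mice, and in 1 with the longest coding sequence. Causes of these shifts were not tested. No paired analysis was possible because the labels give no replicate numbers or litters shared by the genotypes, although the methods of the study state that littermates were used where possible. Depth limits mainly Fam3b and the formyl peptide receptors.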
